A study of Mus musculus with 7 samples.

Results

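The transcripts of 9 transcription factors that direct helper and effector T cell lineages were measured in the splenic CD4+CD25+ cells of aged and young mice. The members were taken by symbol from the deposited series table: Tbx21, Eomes, Gata3, Rora, Ahr, Bcl6, Prdm1, Maf and Zeb2. They are 9 of the 25469 genes with a count in at least 1 library, and all 9 passed the filter on low counts that left 13904 genes for testing. The 3 aged libraries came from WT male C57BL/6 mice aged 18 months and the 4 young libraries from WT male C57BL/6 mice labelled 8 weeks old, a number of weeks that differs from the one in the study's methods. The labels give no treatment for either age. The cells were taken with magnetic beads on CD4 and CD25 (called Tregs here), so that the isolate can hold any cell that the beads retained. The libraries are labelled as biological replicates.

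Each of these factors is known as the switch of a helper or effector programme. T-bet (encoded by Tbx21) directs Th1 cells, GATA3 directs Th2 cells, RORα acts in Th17 cells, Bcl6 directs follicular helper cells, and Blimp-1 (Prdm1) opposes Bcl6 and marks terminal differentiation. In Tregs the same factors are known to appear in activated, so-called effector subsets, where Blimp-1 and c-Maf (Maf) act upstream of interleukin 10 and T-bet acts with the chemokine receptor Cxcr3.

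The libraries held 10734234 to 13649310 counts on genes. Foxp3, the defining factor of Tregs, was at 447 to 622 CPM (counts scaled to library size) in aged Tregs and 394 to 518 CPM in young Tregs, with an adjusted p of 0.409. Cd4 was at 434 to 446 CPM in aged Tregs and 493 to 633 CPM in young Tregs, with an adjusted p of 0.117. Il2ra, which encodes the CD25 used for the isolation, was at 327 to 481 CPM in aged and 471 to 684 CPM in young libraries (log2 fold change -0.61, SE 0.188, adjusted p = 0.0588). The Treg marker Gpr83 was lower in aged Tregs, at 39.9 to 78.8 CPM and 159 to 223 CPM in young ones (log2 fold change -1.71, SE 0.232, adjusted p = 0.00274). These 4 markers were present in every library. Other cells were present too, and some libraries stood apart by their markers. Aged replicate 1 had the highest summed neutrophil markers (5030 CPM, against 247 to 1790 CPM in the others). Young replicate 2 had the highest summed plasma cell markers (1980 CPM, against 309 to 1260 CPM). Summed erythroid markers were far lower in aged replicate 1 (11300 CPM) and young replicate 2 (11200 CPM) than in the other libraries (53700 to 146000 CPM). Aged replicate 2 had the highest sum, followed by young replicate 1 (104000 CPM). Mitochondrial transcripts took at least 5.08% of gene counts in each aged library and at most 3.23% in each young one. In such bulk samples, fewer cells of a type and less RNA per cell cannot be told apart.

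Maf, Tbx21 and Prdm1 were higher in aged Tregs by 2.06-fold to 2.29-fold, and Zeb2 was lower by 1.67-fold. These 4 of the 9 factors passed edgeR's quasi-likelihood test at an adjusted p under 0.05, a call made for 16.7% of all genes tested (2327 of 13904). That number was 1262 without aged replicate 3, 1315 without young replicate 1, 1270 without young replicate 3 and 1237 without young replicate 4, and 1737 to 3058 without any other library. The number of factors called was 2 (Tbx21 and Maf) without aged replicate 1, aged replicate 3, young replicate 1, young replicate 3 or young replicate 4, it was 5 without aged replicate 2, and it was 4 without young replicate 2. Calls of a higher level were made for 3 of the 9 (9.8% of all genes tested), and of a lower level for 1 of the 9 (6.94%). In the same 4 factors the aged and young libraries did not overlap, which held for 29.9% of all genes tested. Gata3, Bcl6, Rora, Ahr and Eomes did not pass the test, and their libraries overlapped between the ages.

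**Figure D1:**
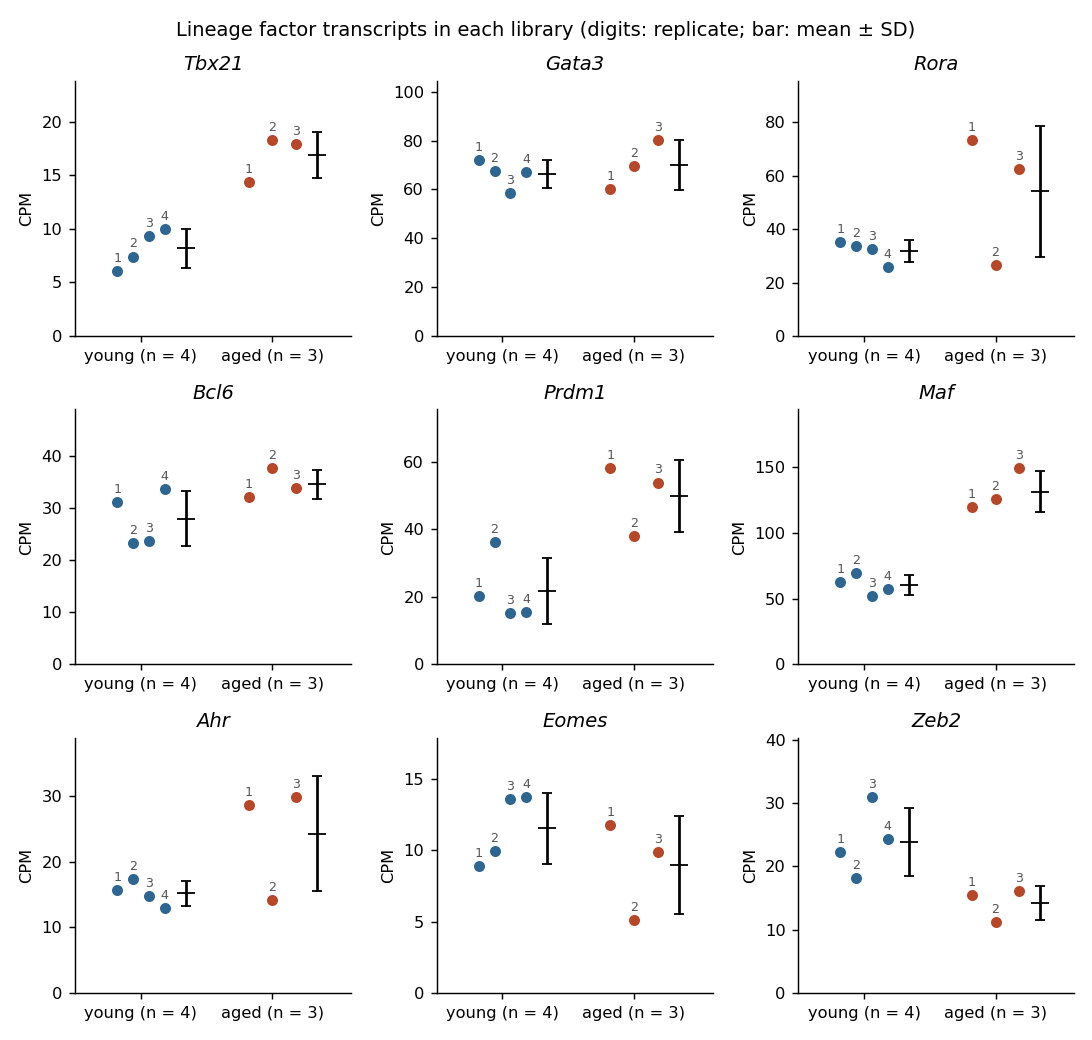
Each panel shows 1 factor, with its level in CPM on the vertical axis, 1 point per library with its replicate number, and the mean ± SD of each age as a bar. The aged points of Tbx21, Prdm1 and Maf all sit above the young points and those of Zeb2 all sit below, while aged replicate 2 sits apart from the other aged libraries in Rora and Ahr.

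T-bet is the master factor of Th1 cells. Its gene Tbx21 (ENSMUSG00000001444) lies at chr11:97098071-97115331 on the minus strand of GRCm38, and no other annotated gene shares its exons. Tbx21 was measured at 14.4, 18.3 and 18.0 CPM in the aged libraries (replicates 1 to 3) and 6.03, 7.43, 9.32 and 9.96 CPM in the young libraries (replicates 1 to 4). Every aged library was above every young one. The mean was 16.9 ± 2.16 CPM in the aged libraries (SD, n = 3) and 8.18 ± 1.79 CPM in the young libraries (SD, n = 4). This gave a log2 fold change of 1.04 with a standard error (SE) of 0.196 and an adjusted p of 0.0105. The call held with each of the 7 libraries left out in turn, with log2 fold changes of 0.93 to 1.15. Natural killer cells also express T-bet. Of 8 of their markers none was higher in aged Tregs and 1, Klrb1c, was lower (log2 fold change -0.73, SE 0.159, adjusted p = 0.0185). The median of the list was -0.68. It includes Klra4, Klra7 and Klra8, which were tested only through the young libraries, and is a description. The summed level of the 8 markers was 56.4 to 77.5 CPM in aged libraries and 71.8 to 116 CPM in young ones. None of the 8 was at 0 in any library. The part of these cells in the level of Tbx21 was not tested.

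The 250 bases before the RefSeq start are shown for 4 factors, because Tbx21, Prdm1 and Zeb2 are the called factors that have a window in the RefSeq promoter table and Bcl6 is the known opponent of Prdm1. They were searched on both strands for short motifs of the factors themselves: the T-box half-site AGGTGT, the site AGATAA of GATA factors, the ROR half-site AGGTCA, the Bcl6 core TTCNNNGAA, which is also the core of the STAT site, the Blimp-1 core GTGAAAG, the MAF half-site TGCTGA, the Ahr core GCGTG and the ZEB E-box CAGGTG. The first and the last of these motifs can overlap, since both hold the letters AGGTG. Letters in capitals mark the matches, and each sequence reads 5′ to 3′ on the strand of the gene (GRCm38.p6). The windows are chr11:97115332-97115581 for Tbx21, chr10:44458749-44458998 for Prdm1, chr16:23988853-23989102 for Bcl6 and chr2:45117443-45117692 for Zeb2, all on the minus strand.
Tbx21: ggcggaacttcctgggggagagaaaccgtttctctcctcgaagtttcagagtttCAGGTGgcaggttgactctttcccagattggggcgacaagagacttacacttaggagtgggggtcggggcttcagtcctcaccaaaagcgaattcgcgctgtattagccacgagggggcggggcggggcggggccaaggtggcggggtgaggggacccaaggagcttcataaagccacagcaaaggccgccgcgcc
Prdm1: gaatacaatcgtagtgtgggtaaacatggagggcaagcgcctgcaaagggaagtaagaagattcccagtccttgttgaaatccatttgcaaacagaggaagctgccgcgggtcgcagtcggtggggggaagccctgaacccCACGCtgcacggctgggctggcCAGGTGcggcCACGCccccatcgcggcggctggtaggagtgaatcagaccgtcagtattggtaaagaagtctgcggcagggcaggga
Bcl6: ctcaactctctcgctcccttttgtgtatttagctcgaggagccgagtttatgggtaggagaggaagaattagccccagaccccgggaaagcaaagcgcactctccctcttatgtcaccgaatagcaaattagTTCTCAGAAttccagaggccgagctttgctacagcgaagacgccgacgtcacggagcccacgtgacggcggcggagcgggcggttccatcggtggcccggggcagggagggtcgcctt
Zeb2: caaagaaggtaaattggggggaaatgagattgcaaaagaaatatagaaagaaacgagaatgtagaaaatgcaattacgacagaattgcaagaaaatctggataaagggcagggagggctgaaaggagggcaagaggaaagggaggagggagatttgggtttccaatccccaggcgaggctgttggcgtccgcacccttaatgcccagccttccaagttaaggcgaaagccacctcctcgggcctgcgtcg
None of these windows overlaps an annotated exon, and that of Prdm1 lies inside an intron of the longer GENCODE gene. CAGGTG was present once before Tbx21, beginning 196 bases before the start, and once before Prdm1, beginning 87 bases before the start. It was present in 17.2% of the 32851 windows in the table. Prdm1 also held 2 matches of GCGTG, a motif of 28.2% of the windows, and Bcl6 held 1 match of TTCNNNGAA, a motif of 7.02%. A second Bcl6 window, inside the gene, held 3 matches of the same motif. In the Zeb2 window shown, no match was found. The other 3 windows of Zeb2 lie over annotated exons and were not printed. Windows 2 and 3 of these 4, which overlap each other, each held 1 TTCNNNGAA and 1 GCGTG, and the last held no match. A match is a stretch of letters and not a measured binding site. Windows were also searched for Gata3, Rora and Eomes. Gata3 held 1 TGCTGA (16.1% of windows), Rora held 1 GCGTG and Eomes held none of the 8 motifs.

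Eomes, the T-box relative of T-bet that is known from cytotoxic T cells and natural killer cells, did not follow Tbx21. Its gene (ENSMUSG00000032446) lies at chr9:118478212-118486132 on the plus strand. Eomes was at 11.8, 5.14 and 9.92 CPM in the aged replicates and at 8.91, 9.95, 13.6 and 13.8 CPM in the young replicates. The ages overlapped, and the lowest value was that of aged replicate 2. The mean was 8.95 ± 3.43 CPM in aged (SD, n = 3) and 11.6 ± 2.49 CPM in young libraries (SD, n = 4), which gave a log2 fold change of -0.37 (SE 0.291) with a 95% interval of -1.03 to 0.30 and an adjusted p of 0.427. The log2 ratio of Tbx21 to Eomes compares both genes within a library, with 0.5 CPM added to each. It was 0.28, 1.74 and 0.83 in aged replicates 1 to 3 and between -0.53 and -0.40 in the 4 young replicates. These ratios do not rank the levels of the 2 genes, whose exons differ in length. Per kilobase of exon Tbx21 was above Eomes in every library, at 5.79, 7.37 and 7.22 against 2.84, 1.24 and 2.39 CPM per kb in the aged replicates. In the young replicates it was at 2.42, 2.99, 3.75 and 4.00 against 2.15, 2.39, 3.27 and 3.31 CPM per kb. The difference of the means was 1.42, with an exact two-sided permutation p of 0.0571 (3 against 4 libraries), which is the smallest this design allows, and a value of 0.0856 after Benjamini-Hochberg adjustment over the 3 ratios examined.

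All 16 genes of the Th1 list passed the filter. Of these, 7 were higher and 1 was lower in aged Tregs, and the median log2 fold change was 0.67, beside 0.02 over all genes tested. This median includes Il12rb2, which reached the minimum of the filter in 2 aged and 4 young libraries. Cxcr3, the chemokine receptor that T-bet is known to switch on, was at 108 ± 5.77 CPM in aged (SD, n = 3) and 34.6 ± 8.84 CPM in young libraries (SD, n = 4), which gave a log2 fold change of 1.64 (SE 0.178, adjusted p = 0.00125). Ccl5, an inflammatory chemokine, rose by 1.41 on the log2 scale (SE 0.207, adjusted p = 0.00384). The lower gene was Ifngr2, a chain of the interferon gamma receptor that was named after its values were seen, at 25.7 to 27.8 CPM in aged and 46.0 to 49.1 CPM in young Tregs (log2 fold change -0.83, SE 0.0868, adjusted p = 0.00117). The other chain, Ifngr1, had a log2 fold change of 0.74 (SE 0.274, adjusted p = 0.099). Il2rb, a chain of the interleukin 2 receptor, had one of -0.35 (SE 0.199, adjusted p = 0.262).

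GATA3, the Th2 factor that is also known to sustain Foxp3 in Tregs, was at a like level at both ages. Its gene (ENSMUSG00000015619) lies at chr2:9857078-9890034 on the minus strand, and 5.83% of its exon bases are shared with exons of other genes. Gata3 was at 60.0, 69.5 and 80.3 CPM in the aged replicates and at 71.9, 67.5, 58.5 and 67.3 CPM in the young replicates. The ages overlapped over most of their range. The mean was 69.9 ± 10.1 CPM in aged (SD, n = 3) and 66.3 ± 5.62 CPM in young libraries (SD, n = 4). The log2 fold change was 0.08 (SE 0.12, adjusted p = 0.704), and its 95% interval of -0.20 to 0.35 leaves out a change of the size seen for Tbx21. The log2 ratio of Tbx21 to Gata3 was -2.02, -1.89 and -2.13 in the aged replicates. It was -3.47, -3.10, -2.59 and -2.70 in the young ones, so that no young library reached the aged range. The difference of the means was 0.95, with an exact two-sided permutation p of 0.0571 (3 against 4 libraries, 0.0856 after adjustment over the 3 ratios).

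Of the 12 genes of the Th2 list, 7 passed the filter. Il4, Il5, Il13, Il24 and Ptgdr2 did not, and the highest count of Il4, the signature cytokine of Th2 cells, was 14 in any library. Of the 7, 3 were higher in aged Tregs and none was lower. Their median log2 fold change of 0.39, beside 0.02 over all genes tested, includes Areg and is a description. Without Areg the values lay on both sides of 0: -0.67 (Ccr4), -0.32 (Il4ra), -0.21 (Stat6), 0.39 (Il2rg), 0.65 (Il1rl1) and 1.06 (Ccr8). Areg, which encodes the repair factor amphiregulin, was at 4.72 ± 1.14 CPM in aged (SD, n = 3) and 1.12 ± 0.739 CPM in young libraries (SD, n = 4), and its fitted log2 fold change was 2.05 (SE 0.444). It reached the minimum of the filter in all 3 aged and in 2 of the 4 young libraries, and since the filter asks for 3 libraries it was tested only through the age where it was high, so that its place among the 3 higher genes is a description. Il1rl1, which encodes the interleukin 33 receptor ST2, rose by 0.65 on the log2 scale (SE 0.189, adjusted p = 0.0498). Il2rg, the shared gamma chain of cytokine receptors, rose by 0.39 (SE 0.11, adjusted p = 0.0459). Both of these calls lie close to the threshold, and each was kept in 6 of 16 alternative fits. Il1rl1 was lost with limma voom (adjusted p = 0.0503), RLE factors (0.0517), library size only (0.0757) and the replicate number as a block (0.204). It was also lost without any single library other than aged replicate 3 (0.0685 to 0.121). Il2rg was lost with library size only (0.0992), no filter (0.0939), GC and length trends removed (0.0573) and the replicate number as a block (0.192). It was also lost without any single library other than aged replicate 1 (0.0651 to 0.118). The receptor chain Il4ra (log2 fold change -0.32, SE 0.131, adjusted p = 0.136) and its signal transducer Stat6 (-0.21, SE 0.0995, adjusted p = 0.191) did not pass the test.

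In both Rora and Ahr, 1 aged library lay apart from the other aged libraries. RORα is a nuclear receptor of Th17 cells and innate lymphoid cells, and Ahr is a receptor for environmental and dietary ligands. Rora (ENSMUSG00000032238, chr9:68653786-69388246, plus strand) was at 73.5, 26.6 and 62.5 CPM in the aged replicates and at 35.0, 33.8, 32.5 and 25.9 CPM in the young replicates. Ahr (ENSMUSG00000019256, chr12:35497974-35535038, minus strand) was at 28.7, 14.2 and 29.9 CPM in the aged replicates and at 15.6, 17.4, 14.7 and 12.9 CPM in the young replicates. For both genes aged replicates 1 and 3 were above every young library, and aged replicate 2 lay within the young range. The log2 fold change of Rora was 0.77 (SE 0.296, adjusted p = 0.11) and that of Ahr was 0.68 (SE 0.246, adjusted p = 0.0942). Without aged replicate 2 they were 1.10 (adjusted p = 0.00462) and 0.95 (adjusted p = 0.00777), and both were then called. Without aged replicate 1, that of Rora was 0.48 (adjusted p = 0.285) and that of Ahr 0.54 (adjusted p = 0.202). DESeq2 on all 7 libraries gave an adjusted p of 0.0484 for Rora and 0.0553 for Ahr. Aged replicate 2 was the library with the highest erythroid markers, and haemoglobin took 13.1% of its gene counts against 1.24% to 10.4% in the others. The part of this library's makeup in the result was not tested.

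Of the 13 genes of the Th17 list, 10 passed the filter, and 3 of them were higher and 1 was lower. Their median log2 fold change of 0.19, beside 0.02 over all genes tested, includes Il21 and is a description. Without Il21 the values lay on both sides of 0, from -1.04 (Il6ra) to 1.00 (Batf). Il17a, Il17f and Il22, the effector cytokines of these cells, did not pass the filter, and no library held more than 10 counts of Il17a. Its range was 0.468 to 0.874 CPM over the aged libraries and 0 to 0.079 CPM over the young, with no overlap, and it had no part in the test after the filter. The cytokine gene Il21 was at 6.14 to 13.5 CPM (61 to 144 counts) in aged and 0.35 to 0.645 CPM (4 to 9 counts) in young Tregs. It reached the minimum of the filter in 3 aged and 0 young libraries and so was tested only through the age where it was high, and its call among the 3 higher genes is a description. It had no value where each library had to hold 10 counts or more. Batf, an AP-1 factor of effector T cells, rose by 1.00 on the log2 scale (SE 0.147, adjusted p = 0.00397). The signal transducer Stat3 rose by 0.49 (SE 0.105, adjusted p = 0.0169). This call was lost with library size only (0.0808) and with the replicate number as a block (0.147). It was also lost without aged replicate 3 (0.0618), young replicate 3 (0.0575) or young replicate 4 (0.0583). The interleukin 6 receptor gene Il6ra was at 106 ± 13.4 CPM in aged (SD, n = 3) and 217 ± 17.8 CPM in young libraries (SD, n = 4), and its log2 fold change was -1.04 (SE 0.121, adjusted p = 0.00158). The membrane genes Tmem176a (log2 fold change 0.45, SE 0.166, adjusted p = 0.101) and Tmem176b (0.56, SE 0.196, adjusted p = 0.0863) did not pass.

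Of 12 partners and targets of Ahr, 8 passed the filter, 2 of these were higher in aged Tregs and none was lower. The median log2 fold change of 0.13, beside 0.02 over all genes tested, includes Cyp1b1 and is a description. Cyp1b1 reached the minimum of the filter in 3 aged and 1 young libraries and was not called. Without Cyp1b1 the values lay on both sides of 0, from -0.184 (Nqo1) to 1.62 (Arnt2). The higher genes were Arnt2, which encodes a dimerization partner of this protein family (log2 fold change 1.62, SE 0.218, adjusted p = 0.00262), and Ptges3, a co-chaperone (0.42, SE 0.116, adjusted p = 0.0419). Ptges3 was called in 8 of 16 alternative fits. It was lost with library size only (adjusted p = 0.115), no filter (0.0698) and the replicate number as a block (0.142). It was also lost without any single library other than aged replicate 1 or young replicate 2 (0.0985 to 0.134). The chaperone gene Hsp90ab1 (log2 fold change -0.07, SE 0.123, adjusted p = 0.724) did not pass the test.

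Prdm1 encodes Blimp-1, a repressor known from plasma cells and from interleukin 10-producing effector Tregs. Its gene (ENSMUSG00000038151) lies at chr10:44437177-44528501 on the minus strand, and no other annotated gene shares its exons. Prdm1 was at 58.1, 38.0 and 53.9 CPM in the aged replicates and at 20.3, 36.2, 15.2 and 15.6 CPM in the young replicates. The ages did not overlap, but young replicate 2 lay close to aged replicate 2. The mean was 50.0 ± 10.6 CPM in aged (SD, n = 3) and 21.8 ± 9.84 CPM in young libraries (SD, n = 4), which gave a log2 fold change of 1.20 (SE 0.307, adjusted p = 0.0326). The log2 fold change was 1.56 without young replicate 2 (adjusted p = 0.00337) and 1.36 without aged replicate 2 (adjusted p = 0.0379). The call was lost without aged replicate 1 (1.07, adjusted p = 0.0678), aged replicate 3 (1.14, adjusted p = 0.0972), young replicate 1 (1.17, adjusted p = 0.0801), young replicate 3 (1.06, adjusted p = 0.0802) or young replicate 4 (1.06, adjusted p = 0.0821).

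Plasma cells also express Prdm1, and the summed level of 6 plasma cell markers moved with it in part. It was 702, 1010 and 1260 CPM in the aged replicates and 309, 1980, 487 and 403 CPM in the young replicates, so that the young library with the highest Prdm1 also had the highest plasma cell sum. None of the 6 markers was called in either direction, and none was at 0 in any library. Jchain, which made up most of the sum, had a log2 fold change of 0.29 (SE 0.737, adjusted p = 0.827). Aged replicate 1 had the highest Prdm1 of all libraries, and its plasma cell sum was below that of young replicate 2. Without young replicate 2 both the Prdm1 and the plasma cell values of the aged libraries lay above those of the young ones. The part of plasma cells in the difference was not tested.

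Bcl6, the follicular factor that represses Prdm1 and is repressed by it, was not called. Its gene (ENSMUSG00000022508) lies at chr16:23965052-23988852 on the minus strand. Bcl6 was at 32.1, 37.6 and 33.9 CPM in the aged replicates and at 31.0, 23.3, 23.7 and 33.7 CPM in the young replicates. Young replicates 1 and 4 lay near the aged libraries and young replicates 2 and 3 below them. The log2 fold change was 0.31 (SE 0.156, adjusted p = 0.215), with a 95% interval of -0.05 to 0.66. The log2 ratio of Bcl6 to Prdm1 was -0.85, -0.02 and -0.66 in the aged replicates and 0.60, -0.63, 0.63 and 1.08 in the young replicates. Per kilobase of exon, Bcl6 was below Prdm1 in every aged library, and above it in every young library except young replicate 2. The difference of the means was -0.93, with an exact two-sided permutation p of 0.114 (3 against 4 libraries, 0.114 after adjustment over the 3 ratios). With 1 library left out in turn the difference ranged from -0.71, without young replicate 4, to -1.28, without young replicate 2, the library that made the ages overlap. The exact p was 0.1 to 0.267 in these fits, none of which can go below 0.1.

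**Figure D2:**
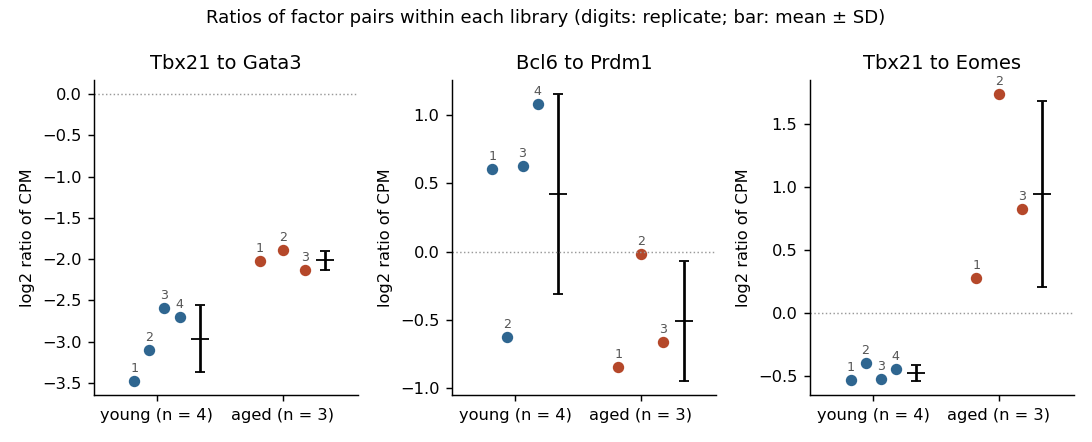
Each panel shows the log2 ratio of the CPM of 2 factors within a library, 1 point per library with its replicate number, and the mean ± SD of each age as a bar. The aged points of Tbx21 to Gata3 and of Tbx21 to Eomes lie above all young points, and the ratio of Bcl6 to Prdm1 overlaps through young replicate 2.

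Of the 14 genes of the follicular helper list, 13 passed the filter, 4 of them were higher and 2 were lower in aged Tregs. The median log2 fold change was 0.26, beside 0.02 over all genes tested. The HMG-box factor Tox2 was at 17.3 ± 3.00 CPM in aged (SD, n = 3) and 7.10 ± 0.628 CPM in young libraries (SD, n = 4), which gave a log2 fold change of 1.28 (SE 0.159, adjusted p = 0.00193). The costimulatory receptor Icos rose by 0.92 on the log2 scale (SE 0.21, adjusted p = 0.0221), and Cxcr5, the receptor that draws cells into follicles, rose by 0.81 (SE 0.111, adjusted p = 0.00296). The call of Icos was lost without aged replicate 3 (adjusted p = 0.0768) or without young replicate 1 (0.0547), 3 (0.0652) or 4 (0.0523). It was also lost with the replicate number as a block (0.138). Lef1, a factor of naive and memory T cells, was at 50.2 ± 3.34 CPM in aged (SD, n = 3) and 110 ± 9.17 CPM in young libraries (SD, n = 4), and its log2 fold change was -1.13 (SE 0.1, adjusted p = 0.000617). The receptor chain Il6st (0.26, SE 0.174, adjusted p = 0.345) and the adhesion receptor Slamf6 (0.20, SE 0.11, adjusted p = 0.244) did not pass.

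Maf had the smallest adjusted p of the 9 factors. c-Maf is known to drive interleukin 10 in several T cell subsets and to act in follicular and effector Tregs. Its gene (ENSMUSG00000055435) lies at chr8:115682942-115707794 on the minus strand, and 5.34% of its exon bases are shared with the antisense gene Gm15655. Without strand, reads over these shared bases cannot be assigned to either gene. Maf was at 119, 125 and 149 CPM in the aged replicates and at 62.4, 69.4, 52.2 and 57.3 CPM in the young replicates. The lowest aged library was well above the highest young one. The mean was 131 ± 15.7 CPM in aged (SD, n = 3) and 60.3 ± 7.33 CPM in young libraries (SD, n = 4), which gave a log2 fold change of 1.12 (SE 0.124, adjusted p = 0.00131) with a 95% interval of 0.84 to 1.40. With each library left out in turn it was 1.02 to 1.19 and remained called each time. Macrophages also express Maf. The summed level of 11 monocyte or macrophage markers was 426 to 574 CPM in aged and 534 to 626 CPM in young libraries, and none of the 11 was at 0. Of these markers 3 were lower and 1 was higher in aged Tregs. The part of these cells in the level of Maf was not tested.

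The 15 genes of the effector Treg list, which c-Maf and Blimp-1 are known to act on or with, all passed the filter. Of these, 5 were higher and none was lower, with a median log2 fold change of 0.81 beside 0.02 over all genes tested. The inhibitory receptor Lag3 was at 98.2 to 224 CPM in aged and 21.1 to 32.1 CPM in young Tregs, and its log2 fold change was 2.56 (SE 0.278, adjusted p = 0.00125). Itgae, the integrin chain CD103, rose by 1.89 on the log2 scale (SE 0.185, adjusted p = 0.000898). The inhibitory receptor Tigit rose by 1.58 (SE 0.186, adjusted p = 0.00162). Fgl2, a secreted suppressor protein of Tregs, rose by 1.23 (SE 0.19, adjusted p = 0.00483). Il10 itself, named here as the known target of both factors, was at 10.3 to 45.7 CPM in aged and 4.74 to 14.8 CPM in young Tregs, and its log2 fold change of 1.61 (SE 0.531) had an adjusted p of 0.0718. Ctla4, the suppressive receptor of Tregs, had a log2 fold change of 0.86 (SE 0.321, adjusted p = 0.103), and the highest young value of 721 CPM lay within the aged range of 640 to 835 CPM. Irf4, which acts before Blimp-1 in effector Tregs, had a log2 fold change of 0.10 (SE 0.151, adjusted p = 0.691).

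Zeb2 was the only 1 of the 9 factors called lower in aged Tregs. ZEB2 is a zinc finger repressor known to act with T-bet in terminal effector cells, and to shape macrophages and dendritic cells. Its gene (ENSMUSG00000026872) lies at chr2:44983632-45117395 on the minus strand, and 3.3% of its exon bases are shared with other genes, the antisense gene Zeb2os among them. Zeb2 was at 15.5, 11.2 and 16.1 CPM in the aged replicates and at 22.3, 18.1, 31.0 and 24.2 CPM in the young replicates. Every aged library was below every young one, and aged replicate 3 and young replicate 2 lay closest. The mean was 14.2 ± 2.68 CPM in aged (SD, n = 3) and 23.9 ± 5.37 CPM in young libraries (SD, n = 4), which gave a log2 fold change of -0.74 (SE 0.208, adjusted p = 0.0433). The call was kept without young replicate 2 (-0.86, adjusted p = 0.025). It was lost without aged replicate 1 (adjusted p = 0.0541), aged replicate 2 (0.111), aged replicate 3 (0.0806), young replicate 1 (0.0818), young replicate 3 (0.0982) or young replicate 4 (0.0963), with log2 fold changes between -0.59 and -0.84. It was also lost with limma voom and with scaling to library size only, each with an adjusted p of 0.0578.

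Several markers of dendritic cells and macrophages, which also express Zeb2, were lower in the aged libraries as well, whereas 4 of 8 neutrophil markers were higher (median log2 fold change of the list 2.13). Of 8 dendritic cell markers, 3 were lower (Clec9a, Siglech and Cd209a) and 1, Zbtb46, was higher. Cd209a was at 0 to 1.01 CPM in aged and 4.19 to 8.85 CPM in young Tregs, was the only 1 of the 8 at 0 in any library, and reached the minimum of the filter in 1 of the 3 aged libraries, so that it was tested only through the young ones. Siglech, of plasmacytoid dendritic cells, was at 1.22 to 2.43 CPM in aged and 3.58 to 6.63 CPM in young Tregs. The summed level of the list was 89.0 to 119 CPM in aged and 95.1 to 124 CPM in young libraries, and Bst2, which T cells also express, was its largest part. The lower monocyte or macrophage genes were Csf1r (log2 fold change -1.12, SE 0.157, adjusted p = 0.0031), Adgre1 (-0.70, SE 0.138, adjusted p = 0.0127) and Vcam1 (-0.56, SE 0.113, adjusted p = 0.0139), and the higher one was Cd14 (1.15, SE 0.23, adjusted p = 0.0132). Natural killer cells also express Zeb2 and Eomes. All 8 of their markers had a negative log2 fold change, with a median of -0.68 beside 0.02 over all genes tested. Klrb1c was the only 1 called. Klra4, Klra7 and Klra8 each reached the minimum of the filter in 2 aged and 4 young libraries. They were tested only through the young ones, so that the shared sign and the median are a description. Without them the values ran from -1.08 (Gzma) to -0.125 (Tyrobp). The part of dendritic cells, macrophages and natural killer cells in the levels of Zeb2 and Eomes was not tested.

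Of the 13 genes of the terminal effector list, all passed the filter. None was higher and 3 were lower. The median log2 fold change of -0.51, beside 0.02 over all genes tested, includes S1pr5 and is a description. S1pr5 reached the minimum of the filter in 1 aged and 2 young libraries. Without S1pr5 the values lay on both sides of 0. The lower genes reported here, S1pr1 and Ccr7, encode receptors of naive, circulating T cells and not effector molecules. The egress receptor S1pr1 had a log2 fold change of -0.81 (SE 0.128, adjusted p = 0.00513) and the lymph node homing receptor Ccr7 one of -0.77 (SE 0.175, adjusted p = 0.0213). The call of Ccr7 was lost without aged replicate 2 (adjusted p = 0.062), aged replicate 3 (0.0793) or young replicate 1 (0.0516). It was also lost with the replicate number as a block (0.0906). The interleukin 7 receptor gene Il7r (0.25, SE 0.253, adjusted p = 0.532) and the costimulatory receptor Cd27 (0.27, SE 0.107, adjusted p = 0.114) did not pass.

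**Figure D3:**
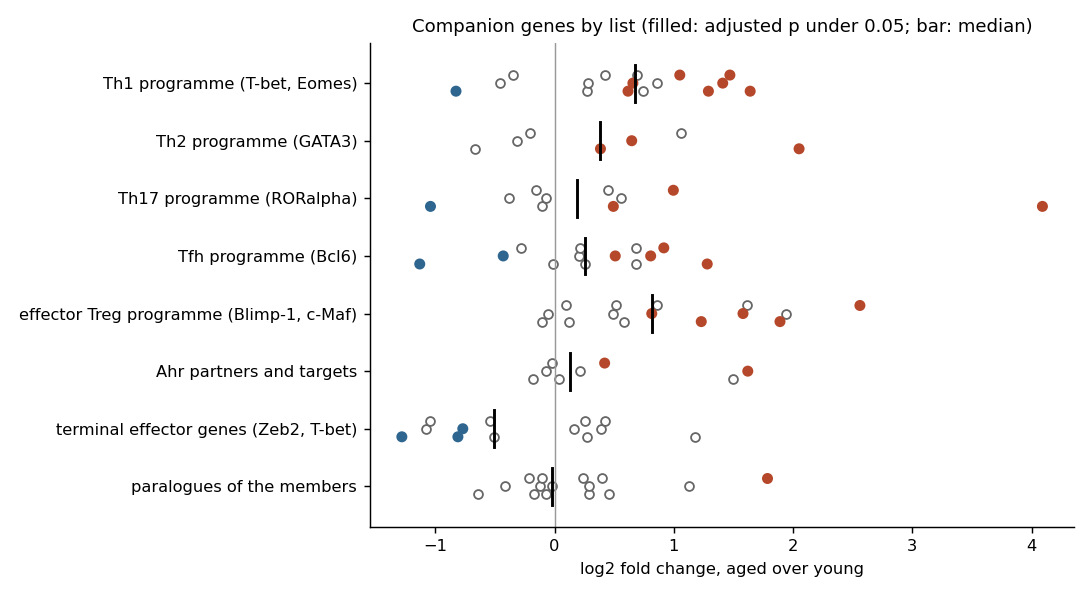
Each circle is a tested gene of a companion list, with its log2 fold change (aged over young) on the horizontal axis, filled where the adjusted p was under 0.05 and with the list's median as a bar. The effector Treg list has the highest median, 0.81, and the terminal effector list the lowest, -0.51, while the median over all genes tested was 0.02. The medians include genes that did not reach the minimum of the filter in 3 libraries of each age.

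Of 32 paralogues of the 9 factors, 15 passed the filter, 1 was higher and none was lower in aged Tregs. This is 6.67% called, beside 16.7% of all genes tested, and their median log2 fold change was -0.02. Prdm2 (-0.41, SE 0.15, adjusted p = 0.0941) and Arnt (-0.02, SE 0.089, adjusted p = 0.888) had the highest levels and did not pass. In all, 32 of the 95 tested companion genes were called. Of the 90 that reached the minimum of the filter in at least 3 libraries of each age, 30 were called (33.3%). Those left out were Il12rb2, Areg, Il21, Cyp1b1 and S1pr5. The share called was 50% in the Th1 list, 46.2% in the follicular helper list, 42.9% in the Th2 list, 40% in the Th17 list, 33.3% in the effector Treg list, 25% among Ahr partners and targets and 23.1% in the terminal effector list, beside 16.7% of all genes tested. The lists hold 7 to 16 tested genes each. The share was 33.3% in both the Th2 list (2 of 6) and the Th17 list (3 of 9) without Areg and Il21, which were tested only through the age where they were high.

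Per kilobase of exon, the order of the factors changed in the middle ranks. The length is that of all annotated exons of a gene joined, such as 19.9 kb for Zeb2 and 13.1 kb for Rora. The order rests on this choice, and no other length was tried. In aged Tregs it was Gata3 (17.6 ± 2.55 CPM per kb, SD, n = 3), Maf (15.9 ± 1.90), Prdm1 (8.96 ± 1.90), Tbx21 (6.79 ± 0.869), Bcl6 (5.15 ± 0.418), Rora (4.15 ± 1.88), Ahr (3.93 ± 1.41), Eomes (2.15 ± 0.826) and Zeb2 (0.714 ± 0.134). In young Tregs it was Gata3 (16.7 ± 1.41 CPM per kb, SD, n = 4), Maf (7.32 ± 0.889), Bcl6 (4.17 ± 0.782), Prdm1 (3.91 ± 1.76), Tbx21 (3.29 ± 0.721), Eomes (2.78 ± 0.598), Ahr (2.46 ± 0.303), Rora (2.43 ± 0.310) and Zeb2 (1.20 ± 0.269). By these means Bcl6 was at rank 3 in young and rank 5 in aged Tregs. It was below Prdm1 and Tbx21 in every aged library, and also below Prdm1 in young replicate 2 (3.47 against 6.48 CPM per kb) and below Tbx21 in young replicate 3 (3.54 against 3.75 CPM per kb). Neighbours whose order was not the same in every library were Prdm1 and Tbx21, Bcl6 and Rora, and Rora and Ahr in aged Tregs, and Bcl6 and Prdm1, Prdm1 and Tbx21, Eomes and Ahr, and Ahr and Rora in young Tregs.

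For each called factor, the tested genes with the most similar profile were found by the mean absolute difference of centred log2 CPM over the 7 libraries. For Tbx21 they were Lrfn4 (0.0889) and Papss2 (0.123). For Prdm1 they were Serpina3f (0.133) and Fgl2 (0.138), the latter also a gene of the effector Treg list. For Maf they were Smpd5 (0.0536) and Impact (0.0655). For Zeb2 they were Mctp2 (0.101) and Klra9 (0.101). Klra9 belongs to the Ly49 family of natural killer cell receptors, whose near-identical copies can share reads, and its mean was 0.885 CPM in aged and 1.79 CPM in young Tregs. The profiles share libraries and depth, and this likeness is a description.

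**Figure D4:**
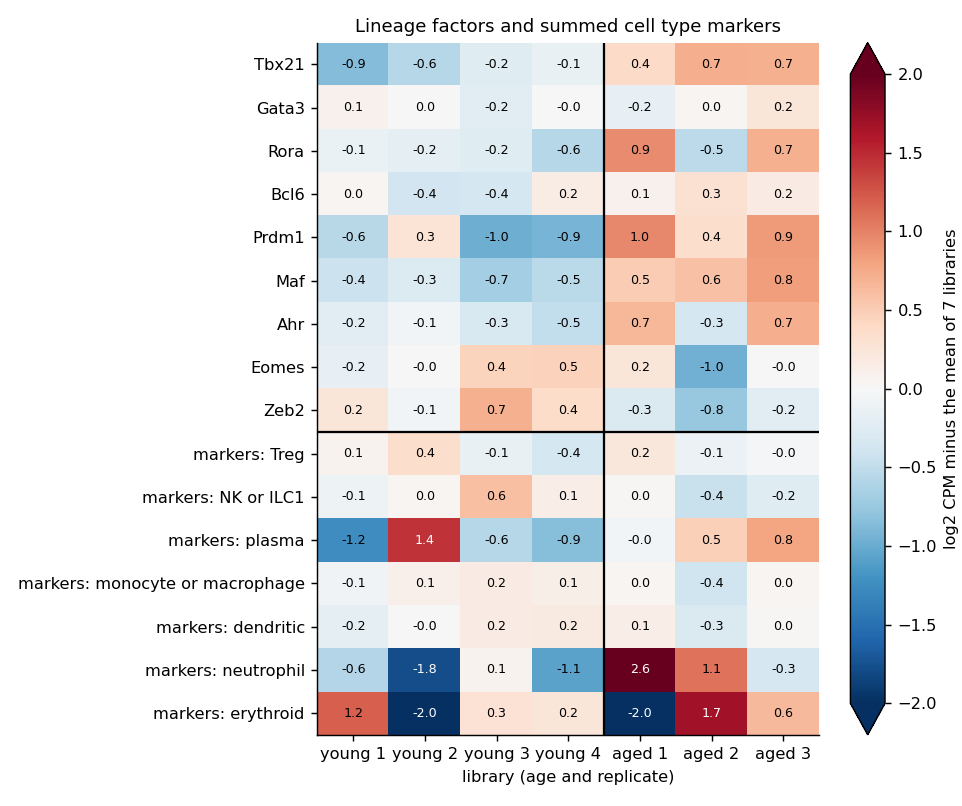
The heat map shows log2 CPM minus the mean of the 7 libraries for the 9 factors (above the line) and for the summed markers of 7 cell types (below the line), with 1 column per library. Prdm1 and the plasma cell markers are both raised in young replicate 2 over the other young libraries, and Rora, Ahr, Eomes and Zeb2 are lowest among the aged libraries in aged replicate 2.

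Within an age the factors did not vary together in 1 way. Aged replicate 2 had the lowest value of the aged libraries for Rora, Prdm1, Ahr, Eomes and Zeb2, and the highest for Tbx21 and Bcl6. Of the remaining marker lists, no B cell (7 genes), CD8 T cell (2 genes) or erythroid gene (6 genes) was called. Of 5 platelet markers 4 were tested and 1 of these was higher, and of 5 mast cell or basophil markers 2 were tested and 1 of these was lower. These lists are short, and the shares over all genes tested were 9.8% higher and 6.94% lower. Among 9 Treg markers 1 (Gpr83) was lower, and of 8 CD4 T cell markers 1 was higher and 1 lower.

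**Figure D5:**
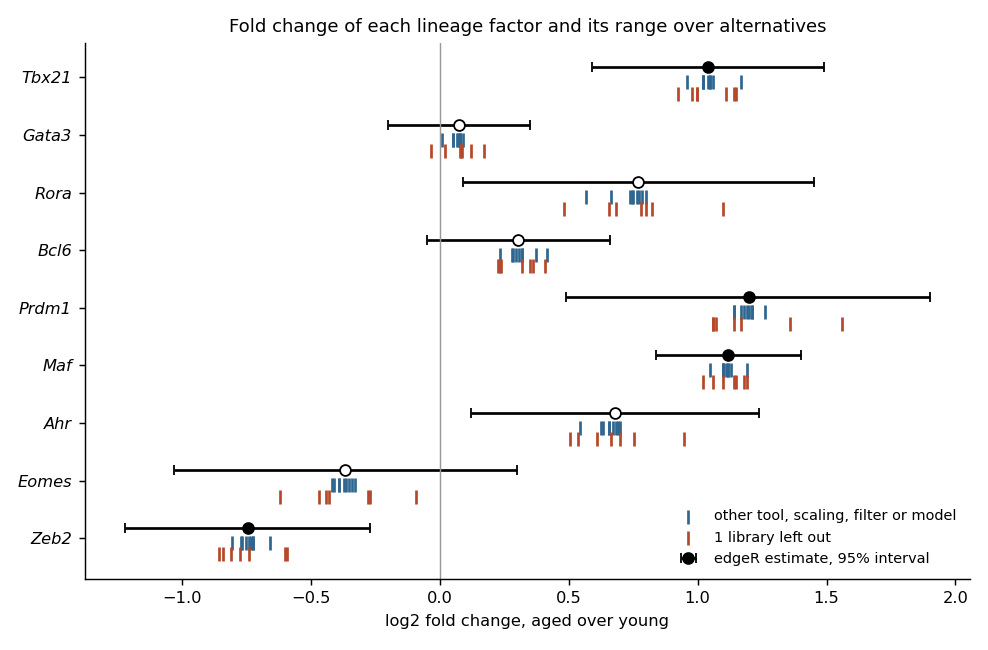
Each row shows the log2 fold change (aged over young) of a factor as a circle with its 95% interval, filled where it was called, with ticks for the fits by another tool, scaling, filter or model and for the fits with 1 library left out. Tbx21, Prdm1 and Maf stay above 0 and Zeb2 stays below 0 in every fit, while the ticks of Gata3 lie on both sides of 0.

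The fold changes of Tbx21, Rora, Bcl6, Prdm1, Maf, Ahr, Eomes and Zeb2 kept their direction in all 16 alternative fits. Rora ranged from 0.48 to 1.10, Ahr from 0.51 to 0.95 and Eomes from -0.62 to -0.09 on the log2 scale.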

How the data were processed

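The authors deposited, for each of the 7 libraries, raw counts of reads per Ensembl gene. cDNA was made with the SMART-Seq v4 kit, which amplifies RNA and adds no molecular identifiers, so precision from counts covers counting error only. The build mm10 is named in the submitters' processing notes, and the aligner is not given in the sources used here. The file names of the counts are those of counting in union mode without strand. Counts that name no gene (13.1% to 20.9% of each library) stayed out of library sizes and tests. The authors also deposited a table of signal values, each a count divided by a constant of its library, which was used for gene symbols. Its columns of the authors' own fold changes and p-values were not used.

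The main test was the quasi-likelihood test of edgeR 4.0.16 under R 4.3.3, with TMM scaling, filterByExpr by group and no covariate. Adjustment by Benjamini-Hochberg ran over 13904 genes, and a gene was called at an adjusted p under 0.05. CPM are on the TMM scale. Ratios used CPM plus 0.5 and exact two-sided permutation tests over libraries, whose smallest p is 0.0571. The median log2 fold change of all genes was 0.02. Gene coordinates and exon lengths, the latter over all annotated exons of a gene joined, are those of GENCODE M21 on GRCm38. Promoter windows are those of RefSeq on GRCm38.p6, in which 7 of the 9 factors had an entry. Alternatives were DESeq2 1.42.0, limma voom 3.58.1, RLE factors, library size only, other filters, mitochondrial, immunoglobulin and haemoglobin genes left out, GC and length trends removed, a replicate block, and each library left out. The tests were checked on simulated counts.

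The 9 factors and the lists of 124 companion genes and of markers were chosen with earlier results of these data known. Named genes are the 9 factors, up to 4 called and 2 highly expressed genes of each companion list, the 2 genes nearest in profile to each called factor, and Foxp3 and Cd4. Marker genes and other genes of the lists are named where their values stand beside a factor, and were chosen after their values were seen. A few genes that this rule names are left out of the text.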

Additional observations from a re-analysis of the deposited data

How the results depend on the processing

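The number of factors called was 4 with edgeR on all libraries, 5 with DESeq2, 3 with limma voom or with library size only, and 2 to 5 with 1 library left out. It remained 4 with RLE factors, with either other filter on low counts, with mitochondrial, immunoglobulin and haemoglobin genes left out, and with GC and length trends removed. Tbx21 and Maf were called in 15 of the 16 alternatives, Prdm1 in 10, Zeb2 in 7, Rora in 2 and Ahr in 1. With the replicate number as a block, 0 factors and 13 companion genes were called by edgeR, and 292 of all genes. The log2 fold change was then 1.17 for Tbx21 (adjusted p = 0.0512), 1.10 for Maf (0.0514), 1.14 for Prdm1 (0.156) and -0.72 for Zeb2 (0.0852), beside 1.04, 1.12, 1.20 and -0.74 without the block. The labels do not say whether samples of the same number belong together. The deviations of same-numbered libraries from their group means had correlations of -0.107, -0.318 and -0.145. Of the 3 aged libraries, 0 correlated best with the young library of its own number. The libraries also differ in makeup, so these values cannot show whether the numbers pair the samples.

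The sign of values near 0 changed in some fits. Gata3 was -0.0331 without aged replicate 3, with a range of -0.0331 to 0.172 over the fits with 1 library left out. Il7r was -0.0211 without aged replicate 1, with a range of -0.0211 to 0.446. Arnt was 0.0388 with GC and length trends removed, with a range of -0.0901 to 0.0318 over the left-out fits. All of these stayed above an adjusted p of 0.05. Companion genes called were 32, Areg and Il21 among them, and 22 to 40 with 1 library left out.

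With 3 against 4 libraries the exact test cannot go below 0.0571. Age, mitochondrial share and the makeup of the isolate differed between the same libraries and cannot be told apart.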
